A study of Mus musculus with 16 samples.

Results

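Glycine is the main fast inhibitory transmitter of the brainstem and spinal cord. It opens a chloride channel, the glycine receptor, which is built from alpha subunits alone or from alpha subunits together with the beta subunit. The beta subunit binds gephyrin, the scaffold protein that holds the receptor at the synapse. Glycine is removed from the cleft by GlyT1, found mainly on astrocytes, and is taken back into glycinergic nerve endings by GlyT2. The genes described here are the alpha subunit genes Glra1, Glra2 and Glra3, the beta subunit gene Glrb, the gephyrin gene Gphn, the GlyT2 gene Slc6a5 and the GlyT1 gene Slc6a9. They were chosen by gene symbol, and all 7 were found among the 24062 genes of the count table.

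The samples were whole brains, cerebellum included, of 16 female mice of the inbred strain C57BL/6J on postnatal day 45, in adolescence, and 1 RNA-seq library was made from each. The WW group had water only, and the NW group drank nicotine at 200 µg/ml during 22 h of each day. Mice of the Water-Ethanol group were offered 20% v/v ethanol on 4 days by drinking in the dark, a schedule of short sessions after lights off, of which the last took 4 h. The NE group had both substances, and each group held 4 mice, which were a random subset of the animals of the study. Nicotine began before the ethanol days and continued through them. It was not available during the sessions, so NW and NE brains were taken after 4 h without nicotine. In all groups the mice were wild type, and the brain was ground whole, so that no region was measured on its own.

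Counted reads per mouse ranged from 27100352 to 32880979. Counts below are normalized counts, that is, counts divided by library size and edgeR's TMM factor and scaled to the mean library of this series. A marker list of 20 genes, most of them Hox genes, whose expression in the brain is confined largely to the hindbrain, above all its caudal part next to the spinal cord, was measured in each library, and 14 of these genes had enough reads to enter a score, called the hindbrain score here. All 20 were above 0 in at least some mice, and 12 in every mouse. The summed level of the list differed 15-fold between the highest and the lowest mouse, and ran from 72.4 to 326 normalized counts in WW and 51.3 to 556 in NW, and from 158 to 769 in Water-Ethanol and 136 to 602 in NE. When WW 21 and NW 10 were left out the sums ran from 136 to 769. The groups overlapped, and the spread within each group was wide. Both ends of the range were higher in Water-Ethanol and NE than in WW and NW, whose lowest mice were WW 21 and NW 10. Whether the groups differed in this level was not tested. A list of 5 markers of serotonin and noradrenaline neurons, which lie further forward in the brainstem for the most part, varied less between mice. Its summed level stayed between 519 and 695 in all 16 mice, and its score was -0.03 in WW 21 and -0.07 in NW 10, within the range of -0.21 to 0.19. That score was lowest in Water-Ethanol 13, with a hindbrain score of -0.74, and highest in Water-Ethanol 15, with a hindbrain score of 1.28. The relation between these scores was not tested. The hindbrain score is a measure of the Hox-rich list, and whether it stands for the hindbrain as a whole was not tested. The hindbrain score, the mean centred log2 level of the scored genes, was lowest in NW 10 (-1.91) and WW 21 (-1.49). These mice also had the lowest scores of 9 cerebellum markers (-1.03 and -1.67), while the other 14 mice lay between 0.05 and 0.31. NW 10 in addition had 3.90% of its counts on Rn45s, a ribosomal RNA gene. Values that rest on these libraries are followed by those without them.

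The 7 genes lay on 7 chromosomes of GRCm38. In the count table Glra1 spanned chromosome 11 from 55514239 to 55608198, Glra2 chromosome X from 165129017 to 165326981, Glra3 chromosome 8 from 55940825 to 56125352 and Glrb chromosome 3 from 80843599 to 80913660. Gphn spanned chromosome 12 from 78226655 to 78684769 with 25 exons, Slc6a5 chromosome 7 from 49910299 to 49959493 with 16 exons and Slc6a9 chromosome 4 from 117835258 to 117869305 with 14 exons. Slc6a9 shared 46 exon bases with Ccdc24 on the opposite strand, and reads there could not be told apart if strand was not used. No other member shared exon bases with another gene of the table.

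Levels were compared between genes as FPKM, fragments scaled to transcript length and to the mapped fragments of the library. Glrb was the highest of the 7 genes, at 102 ± 7.49 FPKM (SD, n = 16 mice). Slc6a9 followed at 32.0 ± 2.52 and Gphn at 29.5 ± 1.00. Glra2 was the highest alpha subunit gene at 8.31 ± 0.37 FPKM, followed by Glra1 at 6.00 ± 1.59. Slc6a5 had 5.43 ± 1.74 and Glra3 4.46 ± 0.45 FPKM. With WW 21 and NW 10 left out, Glra1 and Slc6a5 came to 6.39 ± 1.26 and 5.96 ± 1.04 FPKM (n = 14). The order was not firm throughout. Glrb lay above Slc6a9, and Gphn above Glra2, with no overlap between mice, whereas Slc6a9 was above Gphn in 14 of 16 mice, Glra2 above Glra1 in 15, Glra1 above Slc6a5 in 13 and Slc6a5 above Glra3 in 13. The ranges of these neighbours overlapped. Computed from the counts as reads scaled to exon length and library size, Gphn came to 27.2 in place of 29.5.

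**Figure D1:**
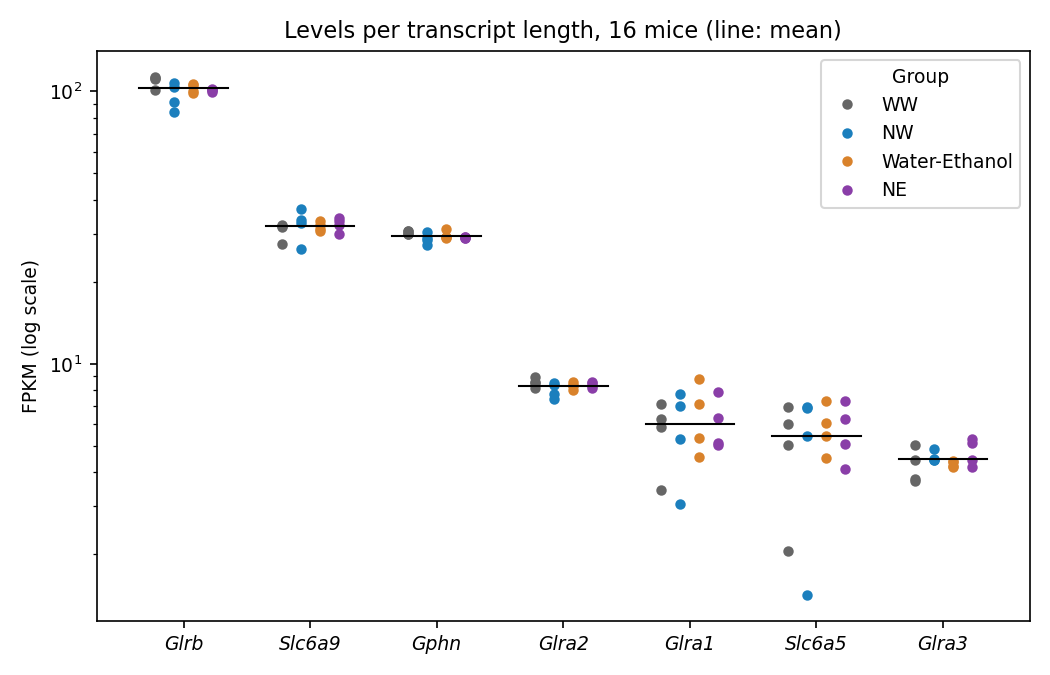
FPKM of each member in each of the 16 mice on a log axis, coloured by group, with the mean as a line. Glrb stands at about 102 FPKM above all others, and Glra1 and Slc6a5 have the widest spread between mice.

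Within the alpha subunit genes, Glra2 made up 44.6 ± 4.70% of the summed FPKM per mouse, Glra1 31.5 ± 5.89% and Glra3 23.9 ± 2.32% (SD, n = 16). The Glra1 share was lowest in NW 10 (19.3%) and WW 21 (21.4%) and highest in Water-Ethanol 15 (41.1%). Without NW 10 and WW 21 the share of Glra1 ran from 27.0 to 41.1%. Glrb FPKM was 5.49 ± 0.53 times the summed FPKM of the 3 alpha subunit genes. Slc6a9 FPKM was 18.6 times that of Slc6a5 in NW 10 and 13.4 times in WW 21, and 4.57 to 7.27 times in the other 14 mice. The balance of the transporter transcripts thus differed most in the libraries with the lowest hindbrain scores, which also had the lowest cerebellum scores.

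Glra1 and Slc6a5 varied far more between mice than the other members. Glra1, the main alpha subunit gene of the adult brainstem and spinal cord, had 412, 388, 479 and 228 normalized counts in WW 18, 19, 20 and 21. It had 456, 356, 204 and 514 in NW 7, 8, 10 and 11. In Water-Ethanol 13, 14, 15 and 16 it had 298, 461, 578 and 346, and in NE 2, 3, 4 and 5 it had 414, 343, 513 and 349. The lowest values were those of NW 10 and WW 21, and all groups overlapped. The coefficient of variation was 26.1% over the 16 mice, and the highest mouse had 2.83 times the level of the lowest. Without NW 10 and WW 21 the values of Glra1 ran from 298 to 578, with a coefficient of variation of 19.2%.

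Slc6a5, which marks neurons that release glycine, had 509, 383, 447 and 147 normalized counts in WW 18 to 21. It had 497, 412, 105 and 512 in NW 7, 8, 10 and 11. The values were 327, 446, 538 and 408 in Water-Ethanol 13 to 16 and 456, 298, 545 and 392 in NE 2 to 5. WW 21 and NW 10 were again the lowest mice, and the groups overlapped. The coefficient of variation was 32.1%, and the highest mouse had 5.20 times the level of the lowest. Both figures rested in large part on these libraries, since without them Slc6a5 ran from 298 to 545, with a coefficient of variation of 17.2%. Over all 15592 genes tested the median coefficient of variation was 7.89%, and 91.6% of genes had a lower one than Glra1 and 95.2% a lower one than Slc6a5. For Glra2, Glra3, Glrb, Slc6a9 and Gphn it was 5.26, 7.81, 7.58, 7.40 and 3.28%.

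**Figure D2:**
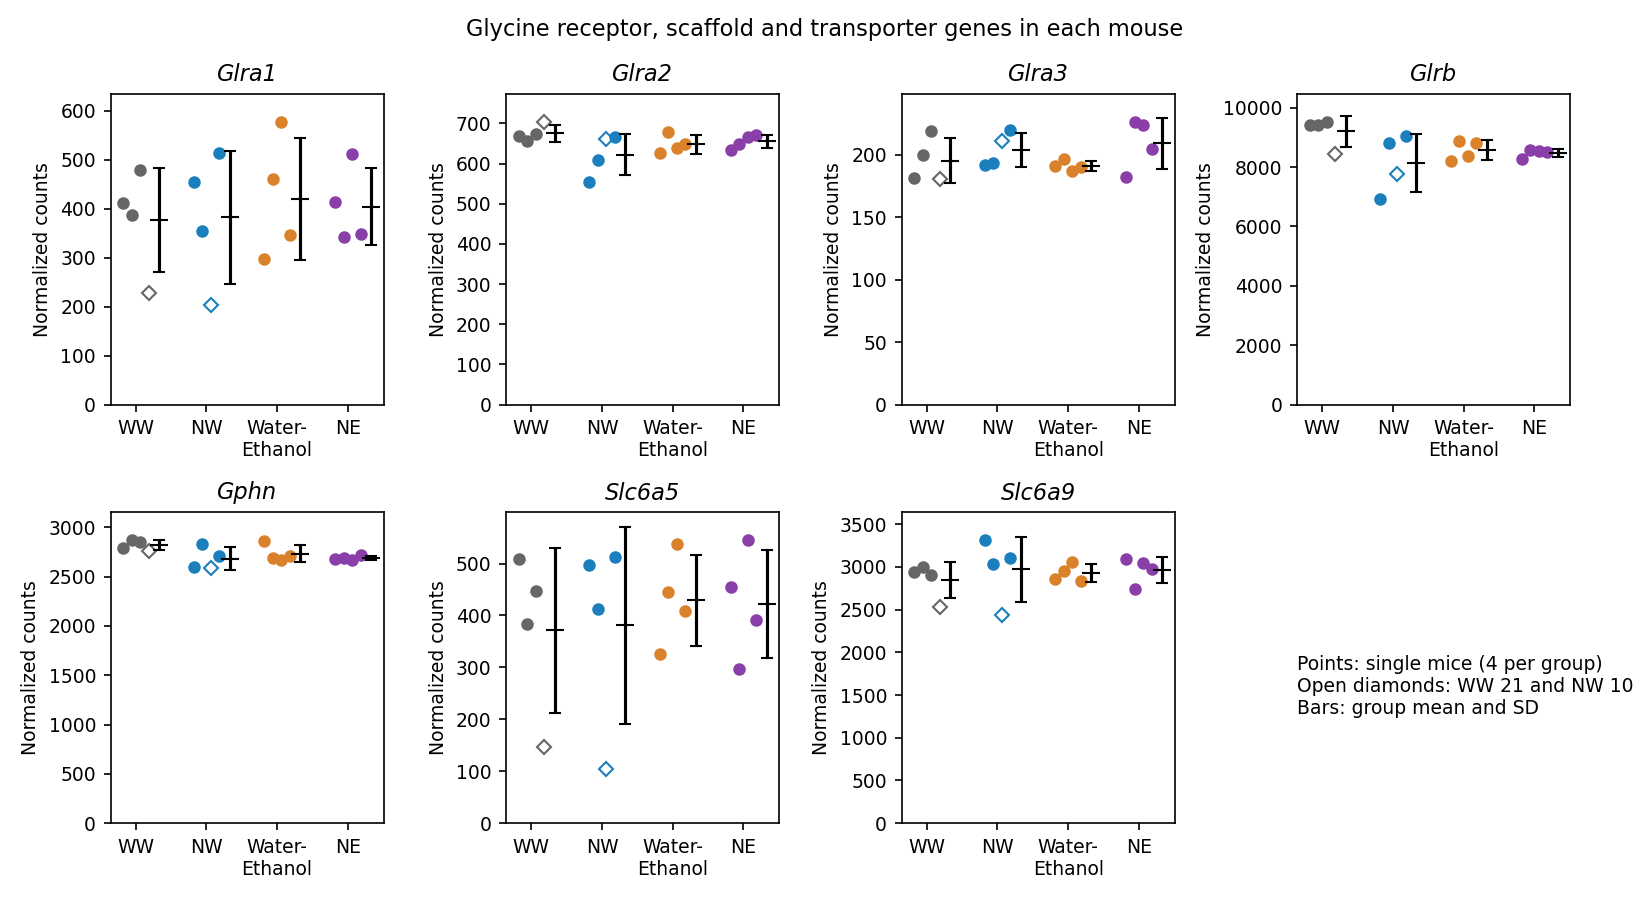
Normalized counts of the 7 members in each mouse, by group, on axes that start at 0, with the group mean and SD as bars. WW 21 and NW 10 (open diamonds) are the lowest mice for Glra1 (228 and 204), Slc6a5 (147 and 105) and Slc6a9 (2531 and 2436).

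Slc6a5 and Slc6a9 moved together over the 16 mice after group means were removed from log2 CPM (log2 counts scaled to library size), with Pearson's r = 0.95, and Glra1 and Slc6a5 with r = 0.92. Without WW 21 and NW 10 these values were 0.73 and 0.85, and the highest value between members was then that of Glra2 and Glrb, at 0.88 against 0.49 over all mice. The 250 bases before the annotated start of the transporter genes are shown because these had the highest r of any pair of members over all 16 mice. They come from RefSeq, build GRCm38.p6, both on the plus strand and written 5′ to 3′. Capitals mark matches on either strand to any of 4 motifs. The core of the TATA box was searched as TATAAA and the GC box, a binding sequence of Sp1, as GGGCGG. The E-box was searched as CANNTG, where N is any base, and the core bound by many homeodomain proteins as TAATTA. The Slc6a5 window is chr7:49910049-49910298 and the Slc6a9 window chr4:117835008-117835257.
Slc6a5: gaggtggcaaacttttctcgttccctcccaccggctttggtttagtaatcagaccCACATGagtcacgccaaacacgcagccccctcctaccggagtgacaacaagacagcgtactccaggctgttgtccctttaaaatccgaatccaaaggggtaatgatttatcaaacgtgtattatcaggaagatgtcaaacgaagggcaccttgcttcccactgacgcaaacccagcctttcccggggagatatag
Slc6a9: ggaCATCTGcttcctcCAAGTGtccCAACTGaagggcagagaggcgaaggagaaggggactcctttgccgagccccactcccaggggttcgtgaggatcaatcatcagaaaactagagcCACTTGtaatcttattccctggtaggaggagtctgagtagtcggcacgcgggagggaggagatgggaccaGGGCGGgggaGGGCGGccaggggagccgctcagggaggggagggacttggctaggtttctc

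The Slc6a5 window held 1 E-box, no GC box, and 50.4% G and C bases. The Slc6a9 window held 4 E-boxes, 2 GC boxes and 60.4% G and C bases. Neither held TATAAA or TAATTA, and no match overlapped another motif. These are the windows of the starts used in the count table. RefSeq lists a further start for Slc6a5, whose window held 2 E-boxes and 43.6% G and C bases, and 2 further starts for Slc6a9, whose windows held none of the 4 motifs and 60.8% G and C bases each. Among 32851 promoter windows of the same length 66.2% held an E-box, 32.7% a GC box, 12.4% TATAAA and 4.84% TAATTA, and the median share of G and C bases was 52.4%. Promoter entries were matched for 6 of the 7 members, the exception being Glra1. The remaining first windows ranged from 50.4% G and C bases in Glra2 to 77.2% in Gphn.

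Whether each member followed the hindbrain markers of its library was tested with the hindbrain score as a term beside the 4 group means. With edgeR's quasi-likelihood test and Benjamini-Hochberg adjustment over all 15592 genes, the score had an adjusted p-value under 0.05 for 3 of the 7 members, against 0.359% of all genes. Glra1 rose by 0.41 on the log2 scale per unit of the score (SE 0.042, adjusted p = 3.3e-05). Slc6a5 rose by 0.54 (SE 0.085, adjusted p = 0.0049) and Slc6a9 by 0.097 (SE 0.020, adjusted p = 0.043). Glra2, Glra3, Glrb and Gphn had coefficients between -0.01 and 0.03 and adjusted p-values of 0.766 or more. In whole brain RNA, fewer cells of a type and less RNA per cell cannot be told apart.

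After removal of the group means, Glra1 log2 CPM and the hindbrain score had Pearson's r = 0.94 (permutation p = 4e-05, 100000 permutations within groups) and Spearman's rho = 0.89 (permutation p = 0.00013). For Slc6a5 r was 0.86 (permutation p = 2e-05) and rho 0.79 (permutation p = 7e-05). For Slc6a9 r was 0.82 (permutation p = 0.0012) and rho 0.73 (permutation p = 0.0040). For Glrb r was 0.32 (permutation p = 0.38) and rho 0.43 (permutation p = 0.16). These are 4 of 21 relations computed, 7 members with 3 scores, and the adjusted values are those of the edgeR test. WW 21 and NW 10 were the mice farthest from the median score. Without them r was 0.90 for Glra1, 0.89 for Slc6a5, 0.69 for Slc6a9 and 0.09 for Glrb.

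In the test over the 14 remaining mice, 2 members passed, against 0.0957% of all genes. Glra1 rose by 0.34 per unit of the score (SE 0.048, adjusted p = 0.0029, edgeR) and Slc6a5 by 0.30 (SE 0.046, adjusted p = 0.0065), while Slc6a9 had 0.05 (SE 0.021, adjusted p = 0.651). The call for Slc6a9 was lost in 16 of 19 alternatives, among them 13 of the 16 fits that each left out 1 mouse, with adjusted p-values of 0.024 to 0.464 in those 16 fits. With a score of Hox genes alone over all 16 mice, a fit chosen after seeing the data, Glra1 rose by 0.40 per unit (SE 0.042, adjusted p = 5.3e-05, edgeR) and Slc6a5 by 0.51 (SE 0.086, adjusted p = 0.0092), the calls of 2 members against 0.327% of all genes. Of all genes tested, Glra1 ranked 9, Slc6a5 30 and Slc6a9 51 by r with the hindbrain score. The marker genes of a score were not set aside in these ranks or in the shares of all genes given for the score tests.

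**Figure D3:**
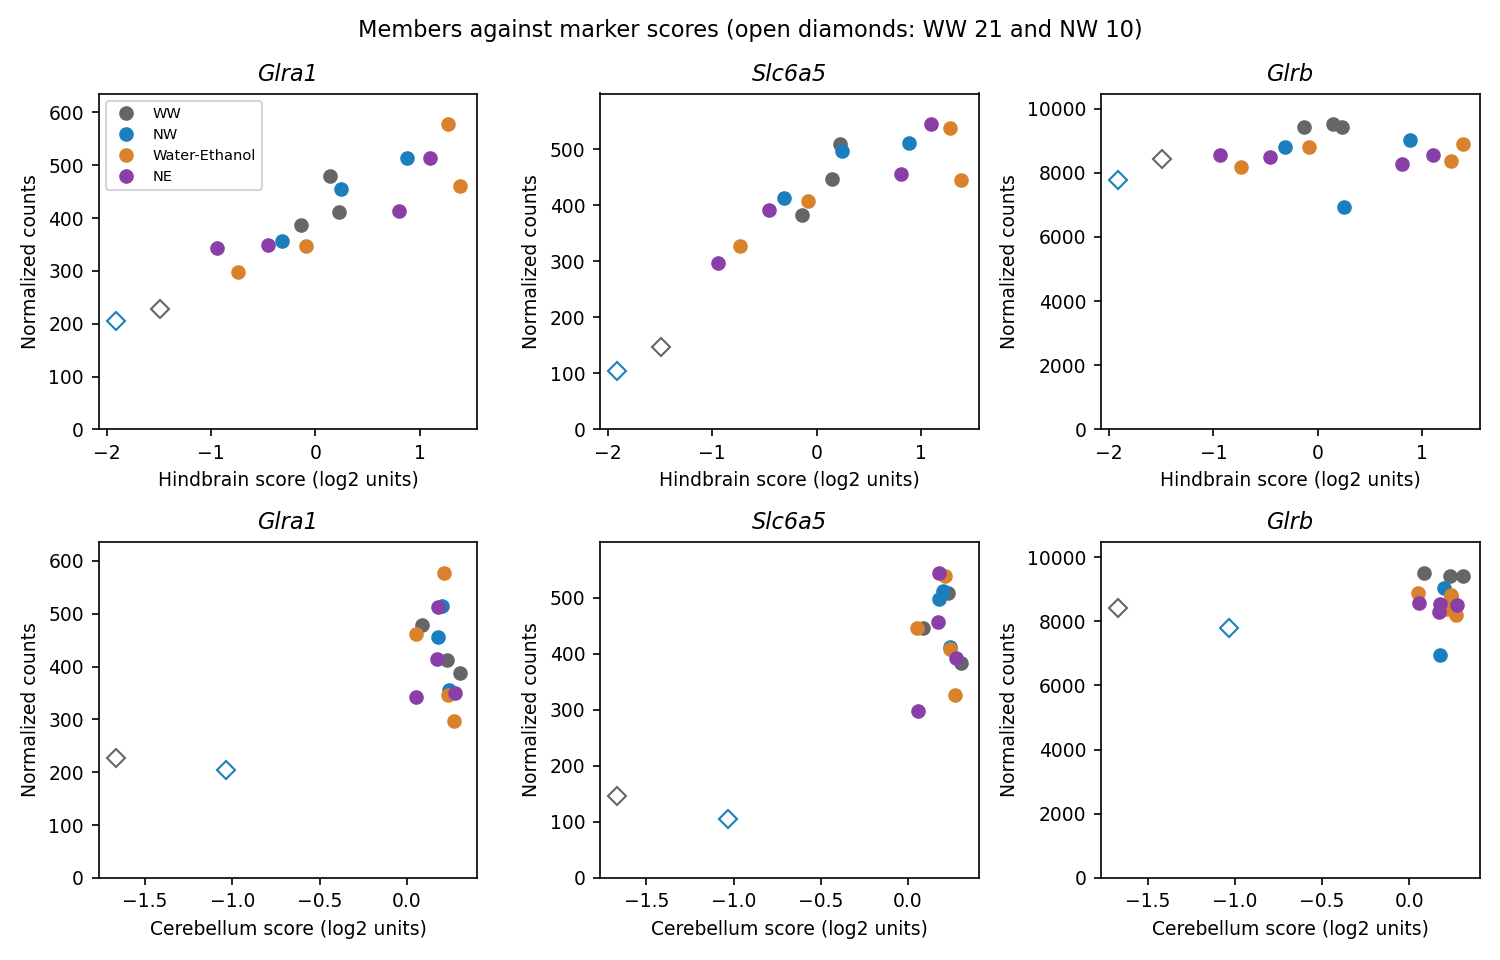
Normalized counts of Glra1, Slc6a5 and Glrb against the hindbrain score (upper row) and the cerebellum score (lower row), 1 point per mouse, coloured by group, with WW 21 and NW 10 as open diamonds. Glra1 and Slc6a5 are for the most part higher at higher hindbrain scores, from -1.91 upwards. Slc6a5 shows no steady climb in the upper part of the range, with 509 in WW 18 (score 0.23) and 446 in Water-Ethanol 14 (1.39). Glra1 in Water-Ethanol 14 (461) is also below that in Water-Ethanol 15 (578, score 1.28). The cerebellum score separates only WW 21 and NW 10 from the other 14 mice.

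The cerebellum score gave a different picture. Over 16 mice 3 members passed the test, against 5.57% of all genes, with coefficients of 0.56 for Glra1 (SE 0.15, adjusted p = 0.031, edgeR), 1.07 for Slc6a5 (SE 0.17, adjusted p = 0.00045) and 0.17 for Slc6a9 (SE 0.036, adjusted p = 0.0063). Without WW 21 and NW 10 no member and 0% of all genes passed, and the coefficients of Glra1 and Slc6a5 were -1.24 (SE 0.86) and -0.23 (SE 0.84). Pearson's r with the cerebellum score was 0.71 for Glra1 (permutation p = 0.054) and 0.86 for Slc6a5 (permutation p = 0.035), with Spearman's rho of 0.47 (permutation p = 0.079) and 0.67 (permutation p = 0.048). Without the same mice r was -0.36 and -0.05, so the relation rested on them. The number of members called for the cerebellum score was 1 when NW 10 alone was left out (2.68% of all genes) and 4 when NW 7 was (7.36%). With both scores in 1 fit, the hindbrain coefficient was 0.36 for Glra1 (adjusted p = 0.00042, edgeR) and 0.36 for Slc6a5 (adjusted p = 0.0020), the calls of 2 members against 0.115% of all genes. In that fit 1 member, Slc6a5, passed for the cerebellum score (0.71, adjusted p = 0.00034), against 2.84% of all genes. The fit with both scores was not run without WW 21 and NW 10, which alone lay far from the rest in cerebellum score. No member passed for the olfactory bulb score, against 0.16% of all genes, and the smallest unadjusted p-value there was 0.021, for Glra1.

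The comparisons between groups asked whether nicotine, ethanol or both altered these genes. In edgeR's quasi-likelihood test with Benjamini-Hochberg adjustment, 0 of 7 members were called in NW against WW (0% of all genes called), 0 in Water-Ethanol against WW (0.457%), 0 in NE against WW (0.313%) and 0 in NE against Water-Ethanol (0%). In the fit of all 16 mice, 0 were called for the ethanol effect (4.5%), 0 for the nicotine effect (0%) and 0 for the interaction (0%). DESeq2 likewise called 0 members in each comparison, against 0.802, 3.94, 3.38 and 0.0131% of all genes in the 4 pairwise comparisons and 7.01, 0.667 and 0.0128% for the ethanol effect, the nicotine effect and the interaction. An unadjusted p-value under 0.05 was found for 1 member, Glrb, in each of the 3 comparisons with WW (8.44, 19.3 and 17.5% of all genes) and in the nicotine effect (10.3%), and for none in the other 3 (5.8% in NE against Water-Ethanol, 22.9% for ethanol and 6.76% for the interaction). With 7 members, 1 gene is close to these shares. The median log2 fold change of the members for NW, Water-Ethanol and NE against WW was 0.03, -0.03 and 0.06, beside medians of 0.01, 0.00 and 0.00 over all genes tested.

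Glrb was the member with the smallest adjusted p-value in each comparison with WW, in the nicotine effect and in the interaction, whereas Gphn had the smallest for ethanol (0.682, edgeR) and Glra3 in NE against Water-Ethanol (0.856). It had 9426, 9422, 9522 and 8428 normalized counts in WW 18 to 21 and 6936, 8793, 7781 and 9039 in NW 7, 8, 10 and 11. It had 8197, 8888, 8381 and 8813 in Water-Ethanol 13 to 16 and 8277, 8571, 8542 and 8507 in NE 2 to 5. WW 18, 19 and 20 lay above all 13 other mice, and WW 21 lay among the treated mice. The log2 fold change was -0.18 in NW (95% interval -0.34 to -0.01, adjusted p = 0.575, edgeR), -0.10 in Water-Ethanol (-0.199 to -0.00034, adjusted p = 0.258) and -0.12 in NE (-0.21 to -0.02, adjusted p = 0.194). Exact two-sided permutation tests of the counts gave p = 0.086, 0.086 and 0.11, where 4 against 4 mice allow no p below 0.0286.

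Without WW 21, Glrb was called in Water-Ethanol (-0.14, SE 0.037, adjusted p = 0.048, edgeR) and in NE (-0.16, SE 0.031, adjusted p = 0.033), which share the WW mice. In these fits 5.17% and 1.84% of all genes were called, against 0.457% and 0.313% with WW 21. In NW it was -0.21 without WW 21 (adjusted p = 0.403). All Water-Ethanol and all NE mice lay below the 3 remaining WW mice, as groups did not overlap for 18.9% and 17.8% of all genes in these comparisons. With a correction for the GC content of transcripts the differences for NW, Water-Ethanol and NE were -0.08, -0.06 and -0.05, none of them called.

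Gphn was the steadiest member. It had 2787, 2868, 2851 and 2761 normalized counts in WW 18 to 21 and 2597, 2831, 2583 and 2708 in NW 7, 8, 10 and 11. It had 2866, 2690, 2668 and 2707 in Water-Ethanol 13 to 16 and 2674, 2686, 2672 and 2721 in NE 2 to 5. All 4 NE mice lay below all WW mice (exact permutation p = 0.0286), and groups did not overlap for 10.6% of all genes in that comparison. The log2 fold change was -0.07 in NE (95% interval -0.135 to 0.004, adjusted p = 0.317, edgeR), -0.07 in NW (-0.16 to 0.02) and -0.04 in Water-Ethanol (-0.12 to 0.04). Without WW 21 and NW 10, Gphn had r = -0.57 with the hindbrain score (permutation p = 0.030), against -0.06 over all mice. This p-value is not adjusted for the members examined, and Gphn did not pass the edgeR test of the score without these mice.

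Glra2, an alpha subunit gene that is prominent in the immature brain, ranged from 655 to 704 normalized counts in WW and 555 to 665 in NW, and from 625 to 679 in Water-Ethanol and 634 to 672 in NE. Its log2 fold change was -0.12 in NW (95% interval -0.26 to 0.03), -0.06 in Water-Ethanol (-0.16 to 0.05) and -0.04 in NE (-0.14 to 0.06). Glra3 ranged from 180 to 219 in WW and 191 to 220 in NW, and from 186 to 197 in Water-Ethanol and 182 to 226 in NE. Its log2 fold change was 0.06 in NW (-0.14 to 0.27), -0.03 in Water-Ethanol (-0.21 to 0.15) and 0.10 in NE (-0.12 to 0.31). For both genes every treated group overlapped WW. With the GC correction the difference of Glra3 was 0.25 in NW (SE 0.092, adjusted p = 0.894, edgeR) and 0.20 in NE (SE 0.11, adjusted p = 0.451), and that of Glra2 was -0.02 in NW and 0.02 in NE. With WW 21 left out, the differences for NW, Water-Ethanol and NE were 0.03, -0.07 and 0.06 for Glra3 and -0.09, -0.03 and -0.02 for Glra2.

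Slc6a9 had 2946, 2995, 2911 and 2531 normalized counts in WW 18 to 21 and 3312, 3033, 2436 and 3101 in NW 7, 8, 10 and 11. It had 2857, 2952, 3063 and 2831 in Water-Ethanol 13 to 16 and 3094, 2747, 3047 and 2971 in NE 2 to 5. WW 21 and NW 10 were the lowest mice and NW 7 the highest. The log2 fold change was 0.06 in NW (95% interval -0.13 to 0.25), 0.04 in Water-Ethanol (-0.07 to 0.16) and 0.06 in NE (-0.06 to 0.19). Without WW 21 these differences of Slc6a9 were 0.01, -0.01 and 0.01, and without WW 21 and NW 10 together that in NW was 0.10 (SE 0.052, adjusted p = 0.528, edgeR). With the GC correction it was 0.01, 0.01 and 0.00.

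For Glra1 and Slc6a5 the intervals were wide. The log2 fold change of Glra1 was 0.03 in NW (95% interval -0.54 to 0.60), 0.16 in Water-Ethanol (-0.31 to 0.63) and 0.11 in NE (-0.31 to 0.52). That of Slc6a5 was 0.05 in NW (-0.85 to 0.95), 0.21 in Water-Ethanol (-0.37 to 0.79) and 0.19 in NE (-0.43 to 0.81). These signs turned when WW 21 was left out. Glra1 then had -0.14, -0.02 and -0.07 for NW, Water-Ethanol and NE, and Slc6a5 had -0.21, -0.05 and -0.07. With NW 10 left out as well, the difference in NW was 0.06 for Glra1 (SE 0.13) and 0.09 for Slc6a5 (SE 0.11). With the hindbrain and cerebellum scores as covariates, the ethanol effect on Glra1 went from 0.12 (SE 0.18) to -0.13 (SE 0.068, adjusted p = 0.253, edgeR) and that on Slc6a5 from 0.17 (SE 0.24) to -0.15 (SE 0.077, adjusted p = 0.245). The sign turned while the standard error fell, and neither was called in either fit. Without WW 21 and NW 10 the ethanol effect was -0.07 for Glra1 (SE 0.13) and -0.11 for Slc6a5 (SE 0.12).

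**Figure D4:**
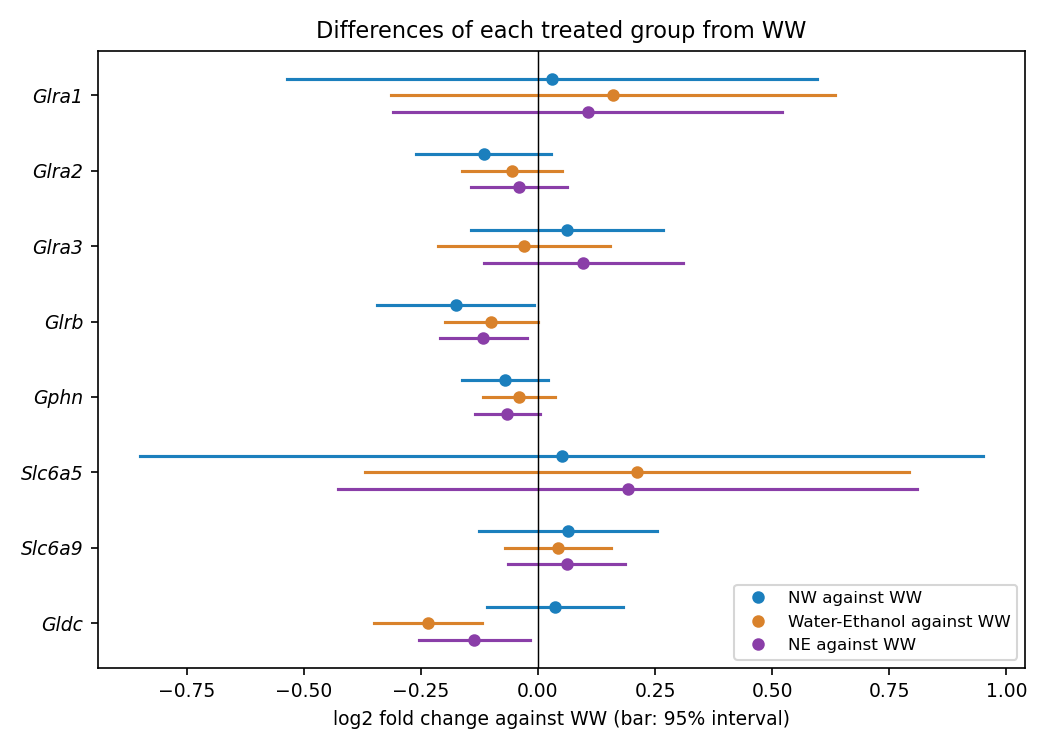
log2 fold change of the 7 members and of Gldc in NW, Water-Ethanol and NE against WW, with 95% intervals from edgeR's quasi-likelihood test. Glra1 and Slc6a5 have the widest intervals, Gphn the narrowest among the members, and Gldc in Water-Ethanol lies at -0.23.

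The other genes of glycine transmission and metabolism were taken from a list of 24, of which 23 had enough reads to be tested and Slc6a14 did not. Of these, 0 were called in the 4 pairwise comparisons, the nicotine effect and the interaction, and 1 was called lower and 0 higher for the ethanol effect, where 4.5% of all genes were called. With 23 genes, 1 call is about the share over all genes. Unadjusted p-values under 0.05 were found for 2, 3 and 6 of them in the comparisons of NW, Water-Ethanol and NE with WW, 0 in NE against Water-Ethanol, 3 for nicotine, 0 for the interaction and 6 for ethanol. The shares over all genes were 8.44, 19.3, 17.5, 5.8, 10.3, 6.76 and 22.9% in the same order. Their median log2 ethanol effect was -0.04, beside 0.00 over all genes and 0.01 over the members. By FPKM the highest and the lowest gene of each role were Dynll2 (367) and Glra4 (0.25) among synaptic partners and further receptor subunits. For amino acid transporters, a role without the ion transporter gene Slc12a5, they were Slc32a1 (49.1) and Slc6a14 (0.01). Among genes of glycine and serine synthesis they were Psat1 (63.2) and Shmt1 (0.82), among those of the glycine cleavage system Dld (72.9) and Gldc (8.46), and among those of the molybdenum cofactor pathway, in which gephyrin also acts, Mocs2 (24.0) and Mocs1 (3.16).

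The gene called was Gldc, which encodes glycine decarboxylase, the enzyme that starts the breakdown of glycine in the cleavage system. It lies on chromosome 19 from 30098441 to 30175441. It had 903, 945, 936 and 981 normalized counts in WW 18 to 21 and 1012, 982, 839 and 1024 in NW 7, 8, 10 and 11. It had 822, 839, 733 and 800 in Water-Ethanol 13 to 16 and 840, 937, 849 and 799 in NE 2 to 5. Every Water-Ethanol value was lower than every WW value (exact permutation p = 0.0286), as groups did not overlap for 10.7% of all genes, while NE overlapped WW through NE 3.

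Over all 16 mice Gldc fell with ethanol by 0.21 on the log2 scale (SE 0.046, 95% interval -0.30 to -0.11, adjusted p = 0.018, edgeR's quasi-likelihood test). In single comparisons it was not called, with -0.23 in Water-Ethanol (SE 0.053, adjusted p = 0.068), -0.14 in NE (SE 0.054, adjusted p = 0.229) and 0.04 in NW (SE 0.066, adjusted p = 0.905). The Water-Ethanol difference was called by DESeq2 (adjusted p = 0.010) and by edgeR without WW 21 (-0.21, adjusted p = 0.044). These fits called 3.94% and 5.17% of all genes, against 0.457% in the main fit, and they use the same mice. The ethanol effect remained called in each of 25 alternatives, with values from -0.24 to -0.18. It was -0.23 (adjusted p = 0.0043) without WW 21 and NW 10. Gldc did not pass the test of the hindbrain score (0.01, SE 0.026) or of the cerebellum score (0.02, SE 0.046). The other cleavage genes were not called, with an ethanol effect of 0.19 for Amt (SE 0.064, adjusted p = 0.089), -0.04 for Gcsh and -0.04 for Dld.

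**Figure D5:**
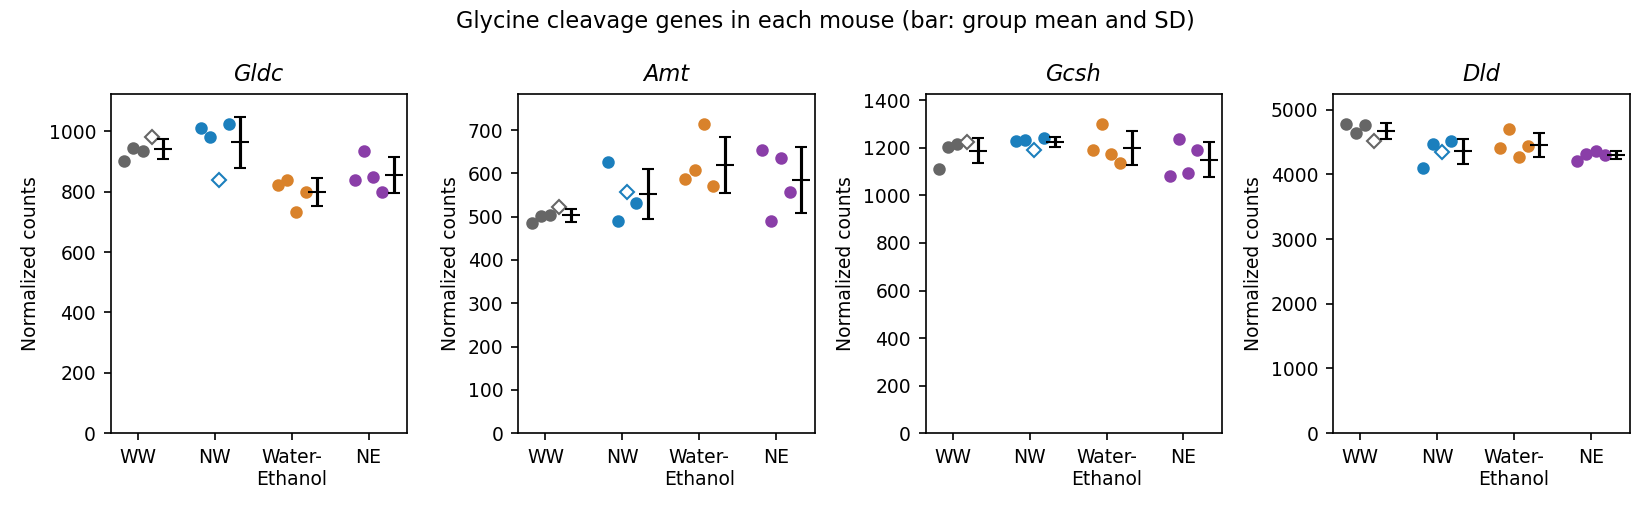
Normalized counts of the 4 glycine cleavage genes in each mouse, by group, with the group mean and SD as bars and axes that start at 0. Gldc lies between 733 and 839 in Water-Ethanol and between 903 and 981 in WW, without overlap, as for 10.7% of all genes in that comparison. NE 3 (937) lies within the WW range, and NW 10 (839) lies below it.

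The genes whose log2 CPM was most alike over the 16 mice, after removal of group means, differed between members. For Glra1 they were Vamp1, Nxpe3 and Ret (r from 0.95 to 0.96), and for Slc6a5 Nxph4, Syt2 and Pax2 (0.95 to 0.97). For Slc6a9 they were Slc29a4, Epn3 and Slc6a5 (0.95 to 0.98), and for Glrb Id2, Ubqln1 and 2700089E24Rik (0.95 to 0.96). For Glra2 they were Ndufaf4, Fbxo28 and Btbd10 (0.91 to 0.93), for Glra3 Slc35b4, Bcl2l13 and Stx8 (0.85 to 0.86) and for Gphn Mpzl3, Entpd3 and Gstk1 (0.80 to 0.84). These are the highest of 15592 genes for each member, and without WW 21 and NW 10 the same pairs had r from 0.90 to 0.91 for Glra1, 0.82 to 0.89 for Slc6a5, 0.73 to 0.89 for Slc6a9, 0.95 to 0.97 for Glrb, 0.91 to 0.96 for Glra2, 0.86 to 0.89 for Glra3 and 0.73 to 0.82 for Gphn.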

How the data were processed

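Reads were trimmed with Trimmomatic 0.32 and aligned to GRCm38 with TopHat2 by the authors, who deposited counts, whole and unnormalized, per gene and FPKM from the Cufflinks tools, scaled for length and library size. The study's methods describe a stranded kit and a first-strand setting in the alignment, while the labels name the TruSeq RNA Sample Prep Kit. Which program counted the reads, and its strand setting, are not given in the sources used here. Each library came from a separate mouse, and groups were taken from the labels.

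Counts were fitted with edgeR 4.0.16 (R 4.3.3; limma 3.58.1, DESeq2 1.42.0 for alternatives): TMM factors, default filter on low counts, quasi-likelihood test and Benjamini-Hochberg adjustment over all genes tested, threshold 0.05. Pairwise comparisons used the groups compared, and ethanol, nicotine and interaction effects all 16 mice. Log2 CPM used a prior count of 2. Marker genes needed a mean count of 10. Not every marker gene is named here. Correlations used 100000 permutations within groups (scipy 1.17.1). The procedure was tested on simulated data, in which all genes had the same biological spread and no library differed in tissue content. A spread as wide as that of Glra1 and Slc6a5 was not covered.

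The members and gene lists were chosen with earlier results of these data known. Named were all members, related genes that were called or were highest or lowest in their role, and the 3 genes most like each member. Alternatives were RLE factors, DESeq2, other filters (none, or 10 counts in every mouse), limma on log2(FPKM + 1) or log2(FPKM + 0.1), scores as covariates, GC correction, fits of all mice and leaving out mice. For the coefficients of the scores, the fits with both scores, with Hox genes alone or without single mice were chosen after seeing the data. The same holds for all fits without WW 21 and NW 10 together.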

Additional observations from a re-analysis of the deposited data

Results flagged for a closer look

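Among 32 groups of 4 mice examined, 8 genes in 4 groups each, 1 value stood apart from the rest of its group: Glrb in WW 21, at 8428 normalized counts. Its gap to the nearest WW mouse was 0.91 of the range of the group, above Dixon's critical value for groups of this size, which chance exceeds in about 1 in 20 groups. At that rate, 1 such value among 32 groups is not unusual. WW 21 also had the second lowest hindbrain score and the lowest cerebellum score, and Glrb passed the test of neither score over the 16 mice (adjusted p = 0.766 and 0.336, edgeR). The part of tissue content in this value was not tested.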

How the results depend on the processing

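No member was called in NW against WW, NE against Water-Ethanol, the ethanol effect, the nicotine effect or the interaction under any alternative run. Without WW 21, and without WW 21 and NW 10 together, 1 member (Glrb) was called in Water-Ethanol and 1 in NE. With 1 mouse left out at a time the count ran from 0 to 1 in both. For the cerebellum score, called members went from 3 to 1 with both scores in 1 fit and to 0 without WW 21 and NW 10, where the coefficients of Glra1 and Slc6a5 turned to -1.24 and -0.23, and ran from 1 (without NW 10, 2.68% of all genes) to 4 (without NW 7, with Glrb, 7.36% of all genes) when 1 mouse was left out. Of 49 uncalled differences of members 28 changed sign in at least 1 alternative. The printed signs of these 28 are therefore not read as directions.

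All-gene counts moved more. With WW 21 and NW 10 left out, 797 genes were called in Water-Ethanol, 283 in NE and 1061 for ethanol. Fits of all 16 mice called 112 in NW and 28 in Water-Ethanol, and with both scores as covariates 208, 127 and 216 in NW, Water-Ethanol and NE. Without a filter 143 were called in Water-Ethanol, and limma on FPKM called 0 there and 1 in NE. With the GC correction Water-Ethanol had 41 and NE 9, all 9 higher, against 30 higher of 48. DESeq2 called 123 genes in NW, 603 in Water-Ethanol, 517 in NE, 2 in NE against Water-Ethanol, 1093 for ethanol, 104 for nicotine and 2 for the interaction, where edgeR called 0, 70, 48, 0, 702, 0 and 0. The causes were not tested. Leaving out 1 mouse gave 0 to 797 in Water-Ethanol, 0 to 283 in NE, 280 to 899 for ethanol and 0 to 49 for nicotine. For the hindbrain score 56 genes were called, 18 with both scores, and 20 to 158 with 1 mouse left out, and for the cerebellum score 868, 443, and 272 to 1153. Replicate numbers occur once in the series. No paired analysis was possible because the groups share no replicate number. With 4 mice a group and the spread of Glra1 and Slc6a5, the intervals leave room for changes of over 0.5 on the log2 scale.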
